A study of Mus musculus with 13 samples.

Results

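The protein kinase D inhibitor CID755673 was left out of a cocktail of 5 compounds (5C), and the resulting cells (5C-C) were compared with cells given the complete cocktail. All 4 libraries whose table columns carry the names 5C-C and 5C were taken, out of 13 libraries in 7 groups. Of the 27141 genes listed in the count table, 19884 had enough reads to be tested.

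Hepatocytes were isolated from wild-type (WT) mice whose livers had been injured with carbon tetrachloride, and such cells are called damaged hepatocytes (dHeps). They were cultured in serum-free Hepatocyte Maintenance Medium for 16 days, after which bulk RNA was sequenced. The 5C cells received the ROCK inhibitor GSK429286A, CID755673, the AMPK activator ETC-1002, forskolin, which activates adenylate cyclase, and Salidroside. The 5C-C cells received the same compounds without CID755673, and DMSO cells received the solvent alone. The removals of GSK429286A (5C-G), ETC-1002 (5C-E) and forskolin (5C-F) were used as a further reference. A removal of Salidroside (5C-S) was also in the series and in the fit, but not in this reference.

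The labels do not say whether the 2 libraries of a group came from separate mice or cultures. The p-values therefore measure only the spread between libraries of a group, estimated in a fit to all 13 libraries. Within each group the libraries are referred to as A and B by the order of their columns, with no pairing between groups. The liver was perfused with Pronase and collagenase by a procedure meant to enrich hepatocyte-derived cells, and transcripts that mark other liver cells were also detected. Total counts ran from 30195867 to 45491932 in these 4 libraries. The 5C-C libraries differed from each other more than the 5C libraries did, with an SD of the difference in log2 level across 12942 genes of 0.55 against 0.30. In bulk RNA, fewer cells of a type and less RNA per cell cannot be told apart.

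Protein kinase D is a family of serine/threonine kinases that lies downstream of diacylglycerol and protein kinase C. It phosphorylates class IIa histone deacetylases, which then leave the nucleus and release MEF2 transcription factors, and it acts at the Golgi on vesicle budding and on the ceramide transfer protein.

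Without CID755673, 23 of 26 mitosis genes were called higher and 21 of 33 cytochrome P450 genes lower. Among DNA replication genes 14 of 29 were called higher, and among hepatic transport and smooth muscle contractile genes 8 of 20 and 11 of 29 were called lower. Across all genes, 20.2% of those tested were called, that is, passed an adjusted p under 0.05 in edgeR's quasi-likelihood test with a log2 fold change beyond 1. Calls in the higher direction made up 9.65% of genes tested (1918) and calls in the lower direction 10.5% (2093). Without 5C-C library B the higher calls numbered 1237. With total counts as the only scaling, the median log2 fold change of all genes was -0.15 in place of 0 and the share of calls that were higher went from 47.8% to 33.8%.

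The fold changes followed transcript composition. GC-rich and short transcripts were higher in 5C-C, and GC-poor and long transcripts were lower. Across 19787 genes with an annotated transcript, Spearman's rho between the log2 fold change and GC content was 0.41, and with transcript length it was -0.31. These correlations run across genes of the same 4 libraries, genes are not independent replicates, and no p is attached. Genes were sorted into 10 bins of equal size. In the bin with the lowest GC content (28.2% to 41.8%) the median log2 fold change was -0.85, with 1.2% of genes called higher and 27.1% called lower. In the bin with the highest GC content (57.9% to 78.3%) the median was 0.77, with 26.6% called higher and 1.4% called lower. By length, the median went from 0.46 in the shortest bin and 0.60 in the next to -0.76 in the longest.

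The trend was seen in each of the 4 pairs of a 5C-C and a 5C library, with rho from 0.38 to 0.41 for GC content and from -0.34 to -0.24 for length. It was also seen inside the 5C-C group: library B minus library A gave rho of 0.17 for GC content and -0.25 for length. The same difference gave 0.04 and -0.02 between the 5C libraries and -0.01 and -0.09 between the DMSO libraries. In the other removals it was larger for GC content than inside 5C-C, at 0.29 and -0.24 in 5C-G, 0.36 and -0.03 in 5C-E and 0.33 and -0.12 in 5C-F. A rank correlation gives the consistency of a trend across genes and not its size, which was not measured between the libraries of these removals. Against the mean of all 13 libraries, rho with GC content was -0.37 and -0.33 in the 5C libraries and 0.28 and 0.34 in the 5C-C libraries. Both groups sat away from the mean, on opposite sides. Such a position was not particular to 5C-C, since 5C-G library B was at 0.29 (and -0.25 for length) while 5C-G library A was at 0.06 (and -0.07). Among 15595 protein-coding genes rho was 0.48 and -0.43. Library preparation and group cannot be told apart here, because the labels give no batch.

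**Figure D1:**
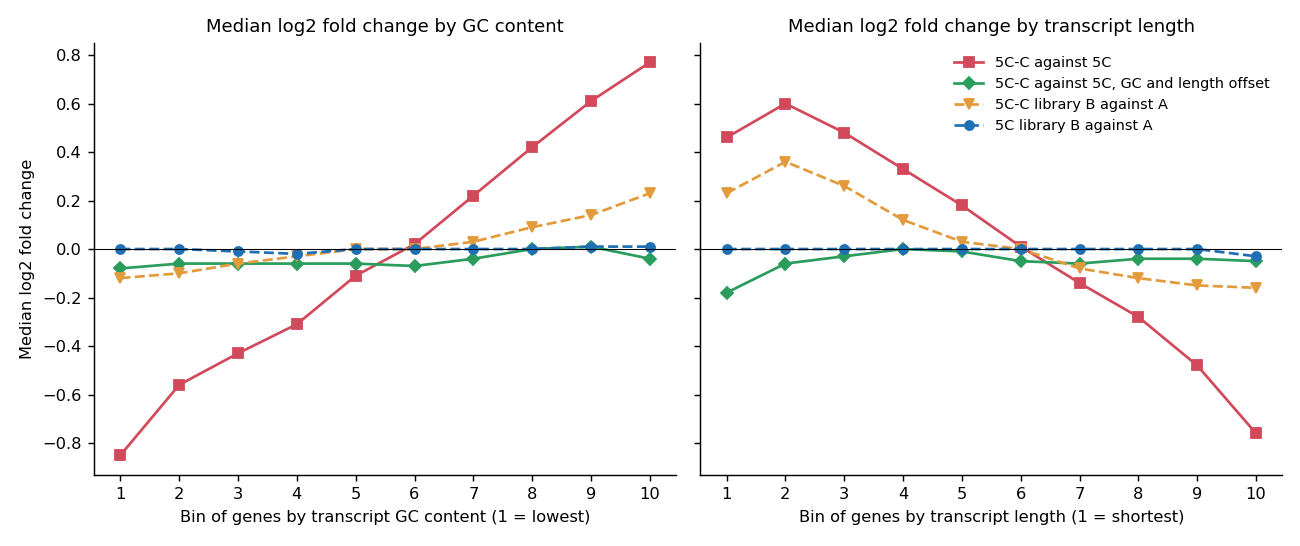
Median log2 fold change (vertical axis) in 10 bins of genes by GC content of the transcript (left) or its length (right), for 5C-C against 5C without and with the offset and for library B against A within each group. The medians run from -0.85 to 0.77 over GC content without the offset and stay between -0.08 and 0.01 with it.

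A second fit gave each library its own smooth offset in GC content and length, which removed the trend (rho 0.03 and 0.04). It called 10.2% of 19787 genes, 951 higher (4.81%) and 1059 lower (5.35%). Of the higher calls of the first fit, 668 (34.8%) were also called higher with the offset, and of the lower calls 801 (38.3%) were also called lower. No call changed direction. The higher calls lost with the offset had a median GC content of 56.6% and a median transcript length of 1544 bases, against 51.6% and 2767 bases for those that were shared. The lower calls lost had 43.6% and 6004 bases, against 48.1% and 3398 bases. The offset would also take away a change in the cells that follows GC content or length. Most lists are therefore given with both fits. Where a gene is given a single log2 fold change, it is from the first fit and can differ with the offset.

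Hepatocyte identity was checked first. Alb, the main plasma protein of hepatocytes, was at 9437 and 9425 FPKM in 5C, 3433 and 2553 FPKM in 5C-C and 9711 and 8604 FPKM in DMSO. Hepatocyte RNA was thus present in all of these libraries, but Alb fell by 1.5 ± 0.19 on the log2 scale (SE, edgeR adjusted p = 4.6e-05) and was called lower with the offset too (-1.5). This fall of a main hepatocyte marker runs beside the falls of P450, transport and plasma protein genes described below, and its part in them was not tested. Ttr, the thyroxine carrier transthyretin, was at 321 and 330 FPKM in 5C and at 142 and 188 FPKM in 5C-C, and its log2 fold change of -0.81 did not reach the fold threshold. Asgr1, a hepatocyte surface receptor, was at 37.8 and 45.2 FPKM in 5C and at 11.8 and 16.8 FPKM in 5C-C. It fell by 1.36 ± 0.21 (SE, edgeR adjusted p = 0.00014).

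Of the protein kinase D genes themselves, Prkd3 was called, and differences between the isoforms were not tested. Prkd1 was at 6.16 and 5.50 FPKM in 5C and at 3.38 and 3.42 FPKM in 5C-C, with a log2 fold change of -0.61 ± 0.29 (SE, edgeR adjusted p = 0.108). Prkd2 was at 4.49 and 4.58 FPKM in 5C and at 4.29 and 5.36 FPKM in 5C-C, so its groups overlapped. Prkd3 was at 10.4 and 10.2 FPKM in 5C and at 3.82 and 2.92 FPKM in 5C-C. Prkd3 therefore fell, by 1.45 ± 0.20 (SE, edgeR adjusted p = 8.41e-05), and lay below both DMSO libraries (8.56 and 8.27 FPKM). With the offset none was called, with log2 fold changes of -0.60 for Prkd1, -0.27 for Prkd2 and -0.73 for Prkd3. Prkd3 overlaps Ndufaf7, and reads of overlapping genes could not be separated here.

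Of 32 tested genes of the kinase family, its upstream kinases and its substrates, 2 were called higher and 7 lower, with a median log2 fold change of -0.12 (-0.28 with total counts only). With the offset none was called higher and 2 were called lower, and the median was -0.24. Over all genes 9.65% were called higher and 10.5% lower, and with the offset 4.81% and 5.35%, so the higher calls of this list were below that background and its lower calls with the offset were close to it. The transcription factor Mef2c, one of the factors held by class IIa histone deacetylases, was at 1.54 and 1.63 FPKM in 5C and at 0.345 and 0.369 FPKM in 5C-C (log2 fold change -1.98, edgeR adjusted p = 3.85e-05, and -0.97 with the offset). Mef2a went from 9.24 and 9.47 FPKM to 3.52 and 2.85 FPKM, which was -1.39 and, with the offset, -0.55. Col4a3bp, which encodes the ceramide transfer protein, went from 8.83 and 7.78 FPKM to 3.34 and 2.99 FPKM, and Kidins220, a membrane scaffold substrate, from 22.2 and 20.4 FPKM to 10.03 and 8.74 FPKM. Both lost their calls with the offset, at -0.39 and -0.50. Plcb1, a phospholipase C that yields diacylglycerol, was called in both fits (-2.07 and -1.21), with 1.57 and 1.70 FPKM in 5C against 0.366 and 0.332 FPKM in 5C-C. Hspb1, a small heat shock protein that the kinase phosphorylates, was called higher at 1.22 in the first fit and stood at -0.15 with the offset. Klf2, a transcription factor gene downstream of the kinase, was called higher at 1.41 and stood at 0.36 with the offset. Without 5C-C library B the values were 0.87 for Hspb1, 0.95 for Klf2 and -0.95 for Kidins220, none of them called, and Kidins220 was at -0.98 and not called without 5C library A.

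Genes of mitosis rose together. Of 26, 23 were called higher and none lower, with a median log2 fold change of 1.68, where 9.65% of all genes were called higher. The offset gave the same counts and a median of 2.05. The genes summed to 47.07 and 46.02 FPKM in the 5C libraries, 135 and 152 FPKM in the 5C-C libraries and 43.5 and 42.6 FPKM in DMSO, so the 5C-C libraries stood above both other groups. For 23 of the 26 genes both 5C-C libraries lay above both 5C libraries, a share that was not counted over all genes. Their transcripts had a median GC content of 46.3% and a median length of 3608 bases, and all genes tested had 49.9% and 2794 bases.

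Mki67, the proliferation antigen Ki-67, was at 1.14 and 0.699 FPKM in 5C, 3.23 and 3.41 FPKM in 5C-C and 1.28 and 1.41 FPKM in DMSO. It rose by 2.02 ± 0.24 on the log2 scale (SE, edgeR adjusted p = 2.69e-05), and by 2.90 with the offset. Aurkb, the kinase of the chromosomal passenger complex, was at 1.09 and 1.04 FPKM in 5C and at 6.35 and 5.97 FPKM in 5C-C. It rose by 2.69 ± 0.32 (SE, edgeR adjusted p = 2.43e-05). Cdc20, an activator of the anaphase promoting complex, was at 2.49 and 3.45 FPKM in 5C and at 13.5 and 17.8 FPKM in 5C-C, a log2 fold change of 2.57 ± 0.28 (SE, edgeR adjusted p = 1.06e-05). Ube2c, the ubiquitin conjugating enzyme of that complex, was at 3.08 and 3.29 FPKM against 12.6 and 22.2 FPKM. Cdk1, the mitotic kinase, was at 5.62 and 4.65 FPKM against 10.3 and 14.9 FPKM, and its partner Ccnb2 at 6.79 and 7.42 FPKM against 20.9 and 26.0 FPKM. The libraries of Aurkb, Cdc20, Ube2c, Cdk1 and Ccnb2 did not overlap between 5C and 5C-C. Prc1, Ect2 and Anln were not called in either fit, and Anln was the member with a fold change below 0 (-0.15).

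Genes that act earlier in the cycle moved less evenly. Of 29 DNA replication genes, 14 were called higher and 1 lower (median 1.07), and with the offset 12 were higher and none lower (median 0.91). Over all genes 9.65% and, with the offset, 4.81% were called higher. Leaving out 5C-C library B reduced the higher calls from 14 to 9. Rrm2, a subunit of ribonucleotide reductase, was at 8.22 and 5.72 FPKM in 5C and at 29.2 and 25.8 FPKM in 5C-C. It rose by 2.14 ± 0.26 on the log2 scale (SE, edgeR adjusted p = 3.1e-05), with the same value under the offset. Tk1, the thymidine salvage kinase, was at 1.14 and 0.983 FPKM against 4.62 and 9.52 FPKM, and Mcm5, a subunit of the replicative helicase, at 1.67 and 1.57 FPKM against 5.34 and 6.998 FPKM. Pola1, the catalytic subunit of DNA polymerase alpha, was called lower at -1.02 but stood at -0.19 with the offset, and it lost its call without 5C-C library B (-0.76) or without either 5C library (-1.01 without library A). Ccnd1, cyclin D1 of the G1 phase, was at 10.6 and 11.6 FPKM in 5C and at 7.19 and 4.30 FPKM in 5C-C (-0.79, not called, and -1.16 and called without 5C-C library A). Among 20 cell cycle inhibitors and p53 targets, 3 were called higher and 4 lower, with a median of -0.13, and with the offset none was higher and 1 lower (median -0.40). Its median was -0.04 without 5C-C library A or 5C library B, and the higher calls numbered 5 without 5C-C library A, 1 without library B and 0 with total counts only. Over all genes 10.5% were called lower, and 5.35% with the offset, so the lower calls of this list with the offset were close to that share.

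Many mitotic genes carry a short element called CHR, often near CCAAT boxes, close to their start. The 250 bases before the start of each gene's canonical transcript (GENCODE vM39, GRCm39) were searched on both strands for the CHR letters TTTGAA and for CCAAT (these words can share a base at their ends). CHR letters were in 9 of 26 mitosis promoters (34.6%) and in 13.1% of 15595 promoters of protein-coding genes tested. CCAAT was in 57.7% and 35.5%, and both together in 26.9% and 4.79%. For comparison, CHR letters were in 36.4% of 33 cytochrome P450 promoters and in 6.9% of 29 DNA replication promoters. CHR and CCAAT together were in 18.2% and 3.45% of these. A match describes the letters only. Some mitosis promoters with both elements are shown because their genes rose in both fits, with matches on either strand in capitals:
Cdk1: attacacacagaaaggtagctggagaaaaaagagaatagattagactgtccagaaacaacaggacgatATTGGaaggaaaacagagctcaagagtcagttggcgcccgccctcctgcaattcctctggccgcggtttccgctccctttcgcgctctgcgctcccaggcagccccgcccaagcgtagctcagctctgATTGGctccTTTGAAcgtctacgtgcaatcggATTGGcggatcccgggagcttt
Top2a: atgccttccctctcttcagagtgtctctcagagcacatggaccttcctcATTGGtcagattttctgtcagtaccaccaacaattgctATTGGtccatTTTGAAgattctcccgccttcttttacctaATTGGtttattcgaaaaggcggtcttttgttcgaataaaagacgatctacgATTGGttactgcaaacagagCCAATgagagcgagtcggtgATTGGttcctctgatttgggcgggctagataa
Kif23: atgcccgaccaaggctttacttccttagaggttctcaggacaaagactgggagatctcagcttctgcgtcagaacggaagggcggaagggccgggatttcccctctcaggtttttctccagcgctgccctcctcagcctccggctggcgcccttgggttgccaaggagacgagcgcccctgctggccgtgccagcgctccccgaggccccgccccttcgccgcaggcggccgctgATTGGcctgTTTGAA
Ccnb2: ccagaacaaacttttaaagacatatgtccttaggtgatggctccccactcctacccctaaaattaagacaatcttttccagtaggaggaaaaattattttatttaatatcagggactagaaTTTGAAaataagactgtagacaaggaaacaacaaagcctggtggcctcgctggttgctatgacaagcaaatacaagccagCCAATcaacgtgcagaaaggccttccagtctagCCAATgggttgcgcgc
These lie on the minus strand at chr10:69188769-69189018 (Cdk1), chr11:98915042-98915291 (Top2a), chr9:61854074-61854323 (Kif23) and chr9:70328875-70329124 (Ccnb2). At most 21 of the 250 bases belong to an annotated exon. Top2a, the mitotic topoisomerase, went from 2.61 and 2.31 FPKM to 6.94 and 6.07 FPKM, and Kif23, a kinesin of the midbody, from 0.532 and 0.437 FPKM to 1.31 and 1.38 FPKM.

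Cytochrome P450 enzymes oxidise drugs, fatty acids and sterols. Of 33 tested, 21 were called lower and 1 higher, with a median log2 fold change of -1.63, where 10.5% of all genes were called lower. With the offset 20 were lower and 2 higher (median -1.80), where 5.35% and 4.81% of all genes were called. Of the members, 4 had no read in either 5C-C library, and with these set at a floor of 3 reads per library the median was -1.54. Summed FPKM was 901 and 892 in 5C, 322 and 309 in 5C-C and 335 and 338 in DMSO. The 5C-C sum was thus close to the DMSO sum, but the members differed: 9 lay above both DMSO libraries in both 5C-C libraries and 21 below. The shares of all genes that lie so were not counted.

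Different patterns were visible against DMSO. Cyp2e1, the ethanol and acetaminophen oxidase of pericentral hepatocytes, was at 75.5 and 73.1 FPKM in 5C and 108 and 112 FPKM in DMSO, but at 1.33 and 0.813 FPKM in 5C-C. It was below both references, by 5.97 ± 0.38 on the log2 scale against 5C (SE, edgeR adjusted p = 6.63e-08). Cyp4a10, a fatty acid hydroxylase, was at 13.1 and 13.3 FPKM in 5C, 0.376 and 0.0728 FPKM in 5C-C and 0.700 and 0.974 FPKM in DMSO. Its relative Cyp4a14 had 975 and 810 reads in 5C and 0 and 2 reads in 5C-C. Both were low in DMSO as well. Cyp2c29 was at 170 and 165 FPKM in 5C, 30.3 and 28.5 FPKM in 5C-C and 1.67 and 1.14 FPKM in DMSO, so it fell by 2.35 ± 0.25 (SE, edgeR adjusted p = 1.07e-05) to a level still above DMSO. Cyp2b10 followed the same order, at 88.3 and 78.0 FPKM, then 24.8 and 27.1 FPKM, then 9.90 and 8.70 FPKM. Cyp3a11, a main drug oxidase, was at 173 and 191 FPKM in 5C, 85.7 and 70.9 FPKM in 5C-C and 0.708 and 0.542 FPKM in DMSO. Its change of -1.05 was called, and with the offset it was -0.61 and not called. The call was also lost without 5C-C library B (-0.95) or 5C library B (-0.94).

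Cyp2c50 (5.53 and 6.84 FPKM in 5C, 0 and 0.120 FPKM in 5C-C) and Cyp2c37 (4.79 and 5.27 FPKM, then 0 and 0.192 FPKM) were near 0 without CID755673. Cyp1a2, the caffeine oxidase, was at 5.48 and 5.26 FPKM in 5C and at 0.328 and 0.479 FPKM in 5C-C (log2 fold change -3.54, edgeR adjusted p = 5.68e-06). Cyp2a5 was the member called higher, at 0.575 and 0.989 FPKM in 5C and at 6.74 and 1.01 FPKM in 5C-C, so the rise rested on library A (0.57 without it). The call was also lost without 5C library A (2.09) or 5C library B (2.93). Cyp2d22 (49.5 and 48.9 FPKM against 43.5 and 41.2 FPKM) was not called. Genes of the Cyp2b, Cyp2c, Cyp3a and Cyp4a families resemble each other, and reads shared between them could have been split by the counting, so single members are uncertain.

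Cyp7a1, the rate-limiting enzyme of bile acid synthesis, had 36 and 35 reads in the 5C libraries and no read in either 5C-C library. The TATA letters TATAAA, searched on both strands, were within 250 bases before the start in 10 of 33 P450 promoters (30.3%) and in 8.23% of all promoters searched.

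Of 20 hepatic transport and bile acid genes, 8 were called lower and none higher (median -0.94), and 6 with the offset (median -0.61), where 10.5% and 5.35% of all genes were called lower. Slco1b2, an organic anion uptake transporter of the sinusoidal membrane, was at 14.3 and 11.9 FPKM in 5C and at 0.657 and 0.463 FPKM in 5C-C. It fell by 4.40 ± 0.43 on the log2 scale (SE, edgeR adjusted p = 5.29e-06), and DMSO lay between, at 3.84 and 4.08 FPKM. Slc10a1, the bile salt uptake transporter, was at 3.21 and 3.14 FPKM against 0.0902 and 0.459 FPKM.

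Enzymes of the urea cycle and amino acid catabolism gave 7 lower and 1 higher call among 26 (median -0.29), and 10 lower and none higher with the offset (median -0.79). The share called lower over all genes was 10.5%, and 5.35% with the offset, and the higher call was below the 9.65% over all genes. Without 5C-C library B the median was -0.51. Hpd, which degrades tyrosine, was at 40.6 and 34.9 FPKM in 5C and at 2.24 and 3.56 FPKM in 5C-C. It fell by 3.52 ± 0.31 (SE, edgeR adjusted p = 1.72e-06). Cps1, the entry enzyme of the urea cycle, was at 89.7 and 87.3 FPKM against 24.1 and 10.8 FPKM, and Tdo2, the tryptophan dioxygenase, at 16.5 and 14.9 FPKM against 1.99 and 1.57 FPKM. Bhmt, which remethylates homocysteine, was at 40.3 and 39.4 FPKM in 5C, 2.30 and 1.81 FPKM in 5C-C and 5.86 and 6.58 FPKM in DMSO.

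Among 28 conjugation enzymes 10 were called lower and 3 higher (median -0.30), and with the offset 4 lower and none higher (median -0.67). Its higher calls were close to the 9.65% over all genes, where 10.5% were called lower, and the median was -0.62 without 5C-C library B. Gnmt, the glycine methyltransferase, was at 114 and 139 FPKM against 17.4 and 18.3 FPKM. Ugt1a1, which glucuronidates bilirubin, was at 7.61 and 7.48 FPKM against 0.981 and 0.621 FPKM, but it shares its 3′ exons with other Ugt1a genes. Of 28 genes of fatty acid oxidation and PPAR alpha targets, 3 were called lower and 1 higher (median -0.39), and with the offset 4 lower and none higher (median -0.34). The lower calls without the offset were close to the 10.5% over all genes, and rose from 3 to 5 with total counts only. Without 5C-C library A the median was -0.59. Ehhadh, a peroxisomal beta-oxidation enzyme, was at 23.2 and 23.5 FPKM against 4.45 and 3.31 FPKM, and Fabp1, the liver fatty acid binding protein, at 42.2 and 28.0 FPKM against 5.56 and 8.69 FPKM. Of 17 glucose metabolism genes, 5 were called lower and 1 higher (median -0.34), and with the offset 4 lower and none higher (median -0.71), against 10.5% and 5.35% of all genes called lower. The median was -0.69 without 5C-C library A. Of 29 cholesterol and fatty acid synthesis genes, 3 were called higher and 2 lower, and 1 in each direction with the offset, which was close to or below the shares over all genes (9.65% and 10.5%, then 4.81% and 5.35%).

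Secreted plasma proteins gave 13 lower and 2 higher calls among 43 (median -0.57), and 15 lower and 1 higher with the offset (median -0.85), where 10.5% and 5.35% of all genes were called lower. Without 5C-C library A the median was -0.36 and the higher calls numbered 4, and they numbered 1 without 5C-C library B or 5C library B. Plg, plasminogen, was at 38.3 and 30.04 FPKM in 5C and at 7 and 5.64 FPKM in 5C-C. It fell by 2.27 ± 0.18 (SE, edgeR adjusted p = 7.86e-07). Serpinc1, antithrombin, was at 7.30 and 6.33 FPKM against 0.758 and 0.716 FPKM, and Apoa2, an apolipoprotein of HDL, at 300.0 and 256.5 FPKM against 35.6 and 64.5 FPKM. Pon1, an HDL esterase, was at 5.81 and 7.08 FPKM in 5C and 5.61 and 6.30 FPKM in DMSO, and at 0 and 0.197 FPKM in 5C-C. Hpx, the haem scavenger hemopexin, went the other way in the first fit, at 600.1 and 674.6 FPKM against 1393 and 1368 FPKM (log2 fold change 1.28), and with the offset it was at 0.67 and not called.

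Acute phase proteins, which hepatocytes and other cells secrete in inflammation, gave 5 higher and no lower call among 22 (median 0.53). With the offset 4 were higher and 1 lower (median 0.19), and 9.65% and 4.81% of all genes were called higher in these fits. The absence of lower calls did not hold with total counts only (4 higher and 3 lower) or without 5C-C library A (2 lower), 5C-C library B (1) or 5C library A (1). Saa3, a serum amyloid A made by macrophages and stromal cells, was at 13.2 and 21.1 FPKM in 5C and at 124.6 and 358 FPKM in 5C-C, a log2 fold change of 3.99 ± 0.41 (SE, edgeR adjusted p = 7.52e-06). Serpina3n, a protease inhibitor, was at 349.6 and 334 FPKM against 754 and 710.5 FPKM and was called in both fits. Lcn2, the siderophore binding lipocalin, was at 467 and 376 FPKM against 767.5 and 843 FPKM, with a log2 fold change of 1.10 that was 0.17 with the offset and 0.99, not called, without 5C library B.

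Of 24 hepatocyte transcription factors, 6 were called lower and 2 higher (median -0.44), and with the offset 5 lower and 1 higher (median -0.47). The higher calls were close to the shares over all genes (9.65% and 4.81%), and the lower calls stand against 10.5% and 5.35%. Hnf4a, the nuclear receptor that defines hepatocytes, was at 21.5 and 18.8 FPKM in 5C and at 17.4 and 13.4 FPKM in 5C-C, and its log2 fold change of -0.22 was not called in either fit. Prox1, a homeobox factor, was at 4.25 and 3.20 FPKM against 1.06 and 0.599 FPKM, and it fell by 2.02 ± 0.26 (SE, edgeR adjusted p = 4.6e-05). Ppara, the receptor that drives the Cyp4a genes, was at 1.84 and 1.66 FPKM against 0.801 and 0.377 FPKM and was called lower in both fits (-1.43 and -1.56), but without 5C-C library B it was at -0.99 and not called. Nr0b2, a repressor of bile acid synthesis, was at 0.790 and 0.288 FPKM against 2.83 and 4.73 FPKM and was called higher in both (2.98 and 1.84). Cebpb rose from 118 and 95.3 FPKM to 207 and 323 FPKM in the first fit (1.48), but its value with the offset was 0.13. Cebpa was not called in the first fit (-0.35) and was called lower with the offset (-1.24).

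Contractile genes mark smooth muscle and activated stellate cells. Of 29 such genes, 11 were called lower and 1 higher (median -0.54), and with the offset 10 lower and none higher (median -0.43). Over all genes 10.5% were called lower, and 5.35% with the offset. The higher calls numbered 3 without 5C-C library A or 5C library A. Acta2, smooth muscle actin, was at 233 and 215 FPKM in 5C, 33.3 and 44.1 FPKM in 5C-C and 255.5 and 299.9 FPKM in DMSO. It fell by 2.36 ± 0.21 on the log2 scale (SE, edgeR adjusted p = 2.64e-06), below both references. Myh11, smooth muscle myosin, was at 1.27 and 1.47 FPKM in 5C, 0.0870 and 0.0404 FPKM in 5C-C and 4.63 and 4.96 FPKM in DMSO. Mylk, the myosin light chain kinase, was at 38.9 and 37.0 FPKM against 9.11 and 7.06 FPKM. Vcl, the focal adhesion protein vinculin, was at 32.8 and 34.1 FPKM in 5C and at 5.59 and 1.00 FPKM in 5C-C. Myl9, a myosin light chain, was at 30.9 and 30 FPKM against 10.7 and 12.8 FPKM. The libraries of these genes did not overlap between 5C and 5C-C. Des, desmin of stellate cells, was at 15.5 and 15.4 FPKM against 30.8 and 34.6 FPKM, a rise of 1.25 that was 0.74 and not called with the offset.

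Serum response factor binds CArG boxes in many of these genes. Such a box lay within 250 bases before the start in 4 of 29 contractile promoters (13.8%) and in 1.19% of all promoters searched. The promoter of Tagln, the actin binding protein transgelin, is shown with its box in capitals:
Tagln: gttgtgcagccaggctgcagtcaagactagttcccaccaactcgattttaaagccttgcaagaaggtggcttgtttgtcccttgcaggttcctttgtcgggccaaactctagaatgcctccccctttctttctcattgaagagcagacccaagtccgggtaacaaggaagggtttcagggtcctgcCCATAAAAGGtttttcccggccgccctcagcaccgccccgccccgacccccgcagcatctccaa
It lies on the minus strand at chr9:45847405-45847654. Tagln was at 2.01 and 2.42 FPKM in 5C, 0.648 and 0.199 FPKM in 5C-C and 2.38 and 3.08 FPKM in DMSO, and it fell by 2.28 ± 0.53 (SE, edgeR adjusted p = 0.00307).

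Of 23 YAP and TEAD targets, 5 were called lower and 1 higher (median -0.62), and with the offset 3 lower and 1 higher (median -0.30). The lower calls went from 5 to 3 and the median to -0.40 without 5C-C library B, and 10.5% and 5.35% of all genes were called lower. Ctgf, a secreted growth factor binding protein, was at 259 and 234 FPKM in 5C and at 75.2 and 60.7 FPKM in 5C-C. It fell by 1.70 ± 0.17 (SE, edgeR adjusted p = 7.02e-06). Amotl2, a feedback regulator of YAP, was at 95.7 and 95.9 FPKM against 43.9 and 31.1 FPKM, with a log2 fold change of -1.19 that was -0.99 and not called without 5C-C library B. The higher call was Birc5, survivin, which is also a mitotic gene.

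Of 46 matrix genes, 5 were called higher and 8 lower (median 0.05), and with the offset 3 higher and 7 lower (median 0.06). The higher calls were close to the share over all genes (9.65%, and 4.81% with the offset). The lower calls stand against 10.5% of all genes, and 5.35% with the offset. The higher calls went from 5 to 8 without 5C library B and to 3 with total counts only. Timp1, an inhibitor of metalloproteinases, was at 257 and 257 FPKM in 5C, 1835 and 2621 FPKM in 5C-C and 204 and 235 FPKM in DMSO. It rose by 3.28 ± 0.24 on the log2 scale (SE, edgeR adjusted p = 3.52e-07). Col8a1, a short chain collagen, was at 20.3 and 21.1 FPKM in 5C, 1.03 and 1.00 FPKM in 5C-C and 38.6 and 38.0 FPKM in DMSO. Col6a3, which forms microfibrils, was at 8.17 and 8.45 FPKM against 2.42 and 1.88 FPKM. Adamts1, a secreted protease, was at 67.8 and 70.7 FPKM against 16.5 and 10.3 FPKM. Of the fibril collagens, Col1a1 was at 448 and 467 FPKM against 779 and 647 FPKM, and its log2 fold change of 0.80 was not called in either fit. Col3a1 was at 246 and 240.1 FPKM against 453 and 405.5 FPKM, which was 0.99 and, with the offset, 1.14 and called. It also passed without 5C-C library B (1.04) or 5C library B (1.01).

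Markers of other cells were read beside these groups. Of 25 stellate cell and fibroblast markers, 4 were called higher and 8 lower (median -0.49), and with the offset 2 higher and 7 lower (median -0.21). The median was -0.24 without 5C library B, and the shares called over all genes were 9.65% higher and 10.5% lower (4.81% and 5.35% with the offset). Their summed FPKM was 1667 and 1782 in 5C and 1741 and 1784 in 5C-C, so the groups overlapped. Reln, reelin of quiescent stellate cells, was at 2.47 and 2.26 FPKM against 0.0905 and 0.0832 FPKM, and it fell by 4.60 ± 0.29 (SE, edgeR adjusted p = 6.63e-08). Tcf21, a mesenchymal transcription factor, was at 6.16 and 5.54 FPKM in 5C, 0.0281 and 0.224 FPKM in 5C-C and 0.791 and 0.601 FPKM in DMSO. Hand2, another stellate cell factor, was at 11.7 and 12.9 FPKM against 32.0 and 44.6 FPKM, and Mfap5, a microfibril protein of fibroblasts, at 2.11 and 1.83 FPKM against 7.29 and 7.80 FPKM. Both were called higher in both fits. The part that a change in these cells had in the contractile and matrix results was not tested.

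Of 26 macrophage markers, 10 were called higher and 1 lower (median 0.79), and with the offset 8 higher and 1 lower (median 0.76). Over all genes 9.65% were called higher, and 4.81% with the offset. The list's higher calls went from 10 to 6 without 5C-C library B. Summed FPKM was 841 and 952 in 5C, 1457 and 2251 in 5C-C and 6887 and 6988 in DMSO, so 5C-C stood above 5C and far below DMSO. C1qa, a complement subunit of tissue macrophages, was at 58.7 and 58.2 FPKM in 5C, 233 and 510.2 FPKM in 5C-C and 825 and 772 FPKM in DMSO. It rose by 2.84 ± 0.37 on the log2 scale (SE, edgeR adjusted p = 5.69e-05), and by 1.56 with the offset. Cd68, a lysosomal protein of macrophages, was at 50.2 and 42.5 FPKM against 132 and 161 FPKM. Adgre1, the F4/80 antigen, was at 11.5 and 12.6 FPKM in 5C, 10.1 and 8.25 FPKM in 5C-C and 80.6 and 74.5 FPKM in DMSO, and it was not called. Cx3cr1, the fractalkine receptor, had 14 and 10 reads in 5C and none in 5C-C. Clec4f, the Kupffer cell lectin, had at most 14 reads in any of the 4 libraries.

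Among 18 liver endothelial markers, 1 was called in each direction (median 0.76), and with the offset 1 higher and none lower (median 0.61), which was near or below the shares over all genes (9.65% and 10.5%, and 4.81% and 5.35% with the offset). Without 5C-C library A the median was 0.24 and 3 were called higher, and without 5C library B 2 were called higher and none lower. Of 24 cholangiocyte and progenitor markers, 4 were called higher and 1 lower (median 0.67), and with the offset 1 higher and none lower (median 0.42), and the median was 0.43 without 5C-C library A. Krt19 was at 77.1 and 71.9 FPKM against 224 and 202 FPKM, and its log2 fold change of 1.68 was 0.79 with the offset. Of lymphocyte and neutrophil markers, 5 could be tested and 1 was called higher (none without 5C library B), and the list summed to at most 4.29 FPKM in any of the 4 libraries.

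**Figure D2:**
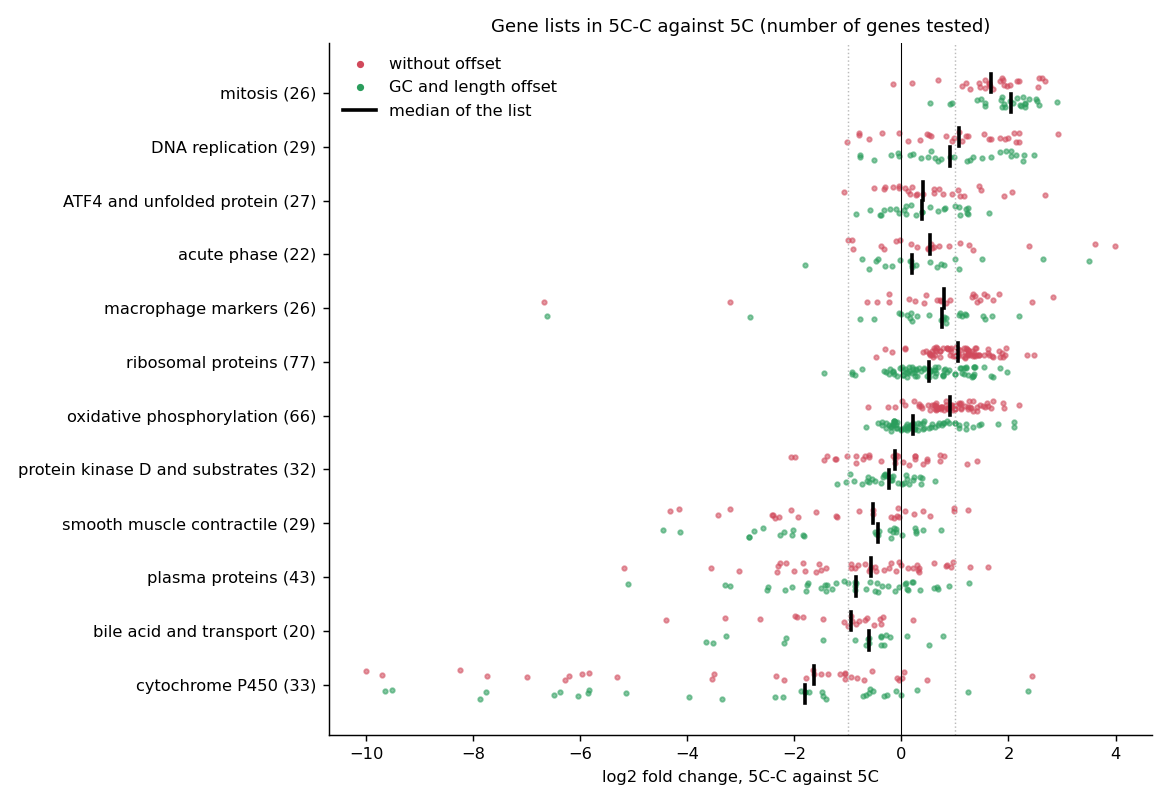
Log2 fold change in 5C-C against 5C (horizontal axis) of each tested gene in 12 lists, without the offset and with the GC and length offset, with a bar at the median of the list and dotted lines at the fold threshold. Mitosis keeps a median above 1 in both fits (1.68 and 2.05), while ribosomal proteins go from 1.06 to 0.51 and respiratory chain subunits from 0.90 to 0.22.

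Cytokine, chemokine and NF-kB feedback genes gave 8 higher and no lower call among 38 (median 0.17), and with the offset 6 higher and 2 lower (median 0.18). Lower calls appeared without 5C-C library B (3), without 5C-C library A (1) and with total counts only (1), where the median was 0.01. The median was 0.28 without 5C-C library A, 0.30 without 5C library A and 0.26 without 5C library B. Ccl8, a monocyte chemokine, was at 0.933 and 1.78 FPKM in 5C, 11.3 and 27.1 FPKM in 5C-C and 42.4 and 42.8 FPKM in DMSO. It rose by 4.01 ± 0.44 (SE, edgeR adjusted p = 1.1e-05). Il33, an alarmin, was at 7.78 and 7.56 FPKM against 19.2 and 14.4 FPKM and was called higher in both fits. Il6 was at 0.564 and 0.402 FPKM against 1.17 and 1.74 FPKM, and its call was lost without 5C-C library B (1.41), 5C library A (2.00) or 5C library B (1.58). Of 31 interferon stimulated genes, 7 were called higher and 2 lower (median 0.25), and with the offset 4 higher and none lower (median 0.29). Without 5C-C library A its lower calls numbered 4, and its median was 0.41 without 5C-C library B, 0.38 without 5C library A and 0.09 with total counts only. The shares called over all genes were 9.65% higher and 10.5% lower, and 4.81% and 5.35% with the offset. Irf7, an interferon regulatory factor, was at 2.64 and 3.37 FPKM against 11.4 and 11.97 FPKM.

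Stress genes of the unfolded protein response and ATF4 gave 8 higher calls among 27 and no lower call in either fit (medians 0.41 and 0.39), where 9.65% and 4.81% of all genes were called higher. With total counts only 5 were called higher (median 0.25), and without 5C-C library A the median was 0.19 and 1 was called lower. Ddit3, the stress factor CHOP, was at 6.07 and 5.26 FPKM in 5C and at 33.4 and 31.7 FPKM in 5C-C. It rose by 2.69 ± 0.25 (SE, edgeR adjusted p = 2.81e-06), and by 1.63 with the offset. Creld2, an endoplasmic reticulum protein, was at 21.3 and 17.5 FPKM against 68.9 and 61.2 FPKM, and Sdf2l1, a chaperone partner, at 17.9 and 22.9 FPKM against 90.7 and 61.7 FPKM. Of 29 NRF2 targets and NADPH oxidase subunits, 6 were called higher and 3 lower (median 0.24), and with the offset 3 higher and 2 lower (median 0.19). The 3 lower calls were close to the 10.5% over all genes. The 6 became 3 without 5C-C library B (median 0.12) or with total counts only (median 0.08). Nox4, an NADPH oxidase, was at 6.27 and 4.61 FPKM against 1.45 and 1.10 FPKM and was lower in both fits. Of 30 BCL2 family and caspase genes, 3 were called higher and 2 lower (median -0.09), and with the offset 1 in each direction (median -0.15), close to or below the shares over all genes (9.65% and 10.5%, then 4.81% and 5.35%). Without 5C-C library A the calls were 5 higher and 4 lower. The median was -0.19 without 5C-C library A or 5C library A, -0.18 without 5C-C library B and -0.26 with total counts only. Bax, a pore-forming member, was at 20.2 and 16.2 FPKM against 30.8 and 63.4 FPKM, and its 1.55 was 0.21 with the offset and 0.89, not called, without 5C-C library B. Xiap, a caspase inhibitor, was at 16.2 and 15.1 FPKM against 3.71 and 2.92 FPKM, and its -2.07 was -0.97.

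Ribosomal proteins and respiratory chain subunits have short transcripts, and the offset lowered their medians. Of 77 cytosolic ribosomal proteins (median length 1096 bases), 44 were called higher and none lower with a median of 1.06, and with the offset 21 higher and 1 lower with a median of 0.51. Over all genes 9.65% and, with the offset, 4.81% were called higher. Without 5C-C library B the 44 became 26. Their share of all counts was 3.62% and 4.18% in 5C and 6.77% and 8.29% in 5C-C. Of 66 nuclear-encoded respiratory chain subunits (median length 1129 bases), 28 were called higher and none lower (median 0.90), and with the offset 12 higher and none lower (median 0.22). The 28 became 15 and the median 0.60 without 5C-C library B. The 12 tested subunits encoded by mitochondrial DNA all had fold changes below 0 in both fits (medians -0.73 and -0.28), but the median was 0.26 with a GC offset alone, and none was called in either fit. Without 5C-C library A 7 were called lower, without 5C library A 2 and with total counts only 3, and the median was -0.33 without 5C-C library B. Their genome made up 1.26% and 1.56% of counts in 5C and 1.08% and 0.581% in 5C-C.

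Among single genes, 12 rises and 12 falls were named by size from 363 and 291 genes that were called in the same direction in both fits, had libraries that did not overlap and reached a mean of 5 FPKM in the higher group. The rises were led by Reg1, a secreted lectin of regenerating tissue, with 0 and 6 reads in 5C and 295 and 286 reads in 5C-C. Dio3, the deiodinase that inactivates thyroid hormone, was at 0.440 and 0.0321 FPKM against 5.94 and 5.68 FPKM, a log2 fold change of 4.76 ± 0.88 (SE, edgeR adjusted p = 0.000552). Dmkn, dermokine of epithelia, was at 0.897 and 0.861 FPKM against 8.72 and 15.0 FPKM, and Tnfrsf9, the costimulatory receptor 4-1BB, at 1.08 and 1.85 FPKM against 13.4 and 12.6 FPKM. Cenpm, a centromere protein, and Cdca3, a trigger of mitotic entry, joined the mitosis genes. Cenpm was at 3.48 and 2.52 FPKM against 27.1 and 37.4 FPKM, and Cdca3 at 1.19 and 1.23 FPKM against 9.92 and 13.2 FPKM. Derl3, of endoplasmic reticulum associated degradation, was at 1.14 and 0.768 FPKM against 11.9 and 4.77 FPKM, and Glod5 at 0.885 and 0.484 FPKM against 9.68 and 7.07 FPKM. Ccl8, Saa3 and Timp1, also among these rises, are described above.

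The falls were Cyp4a14, Cyp2c50, Cyp2e1, Cyp4a10, Pon1, Cyp2c37, Tcf21, Slco1b2, Col8a1 and Bhmt, with values above, and a pair not yet described. Mup20, a major urinary protein with near-identical copies, was at 26.4 and 38.1 FPKM in 5C, 1.71 and 0.638 FPKM in 5C-C and 2.65 and 3.01 FPKM in DMSO. Akr1c6, a hydroxysteroid dehydrogenase, was at 6.96 and 7.22 FPKM in 5C, 0.244 and 0.453 FPKM in 5C-C and 7.42 and 8.95 FPKM in DMSO. The P450 genes were 5 of the 12 falls.

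**Figure D3:**
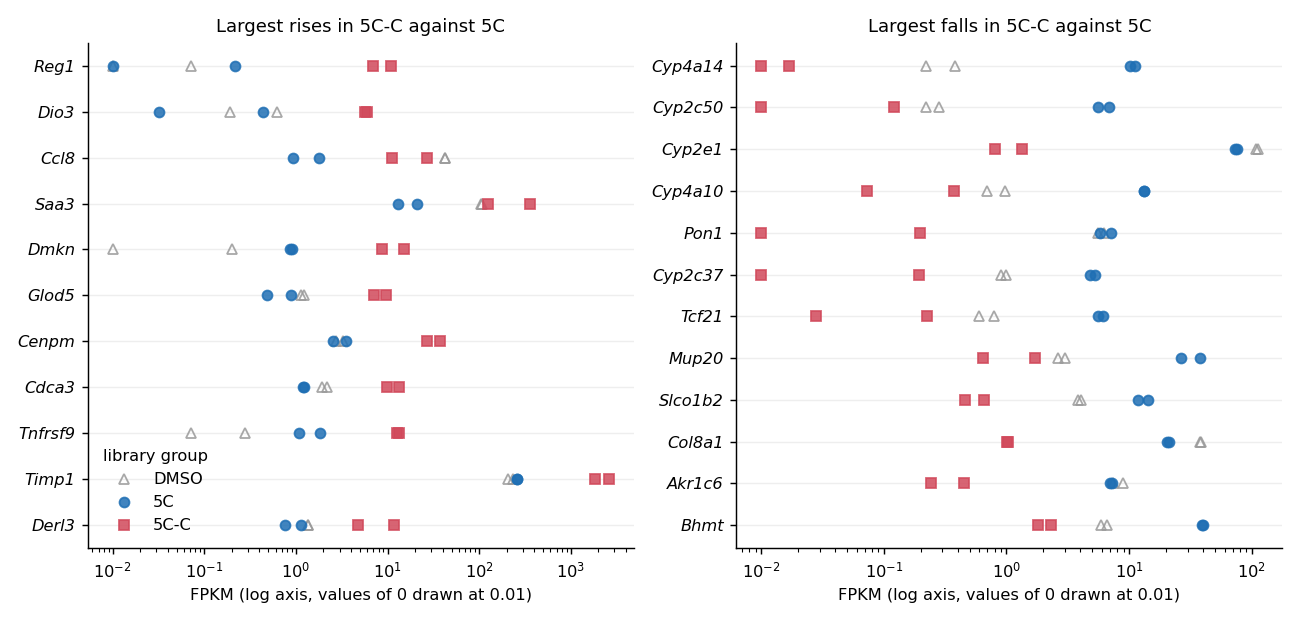
FPKM (log axis) of the 11 genes with the largest rise and the 12 with the largest fall, with 1 point per library of DMSO, 5C and 5C-C and values of 0 drawn at 0.01. The genes were chosen so that the 2 libraries of 5C-C lie apart from the 2 of 5C.

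Against the mean of the other removals (5C-G, 5C-E and 5C-F, 6 libraries), which uses the same 5C-C libraries but no 5C library, 7.55% of genes were called, 3.93% higher (781) and 3.62% lower (720). With total counts as the only scaling this balance turned to 561 higher and 991 lower. The trend with GC content and length was present here too (rho 0.29 and -0.30). The total depended on the 5C-C library used: it was 829 without library B and 2383 without library A. Of the mitosis genes 15 of 26 were called higher (median 1.07), and 19 with the offset, where 5.2% of all genes were called (2.63% higher and 2.57% lower). Of the contractile genes 9 of 29 were called lower (median -0.54) and 10 with the offset. Of the P450 enzymes 9 of 33 were called lower and 2 higher in either fit (medians -0.59 and -0.79). Acute phase proteins gave 11 higher calls among 22 (median 1.01), and 5 with the offset (median 0.65). Macrophage markers pointed down in this comparison, with 4 called lower, none higher and a median of -0.61, and with the offset 7 lower, none higher and a median of -0.73. Timp1 reached 196 to 721 FPKM in the other removals and Aurkb 1.23 to 2.81 FPKM, both below the 2 libraries of 5C-C. Col8a1 was at 4.84 to 27.4 FPKM there, above both. Cyp2e1 was at 1.87 to 51.6 FPKM and Cyp4a14 at 0 to 35.1 FPKM, a spread that reached close to the 5C-C level.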

How the data were processed

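RNA was sequenced by the authors from 13 libraries of dHeps in 7 groups as paired reads and aligned to GRCm39. The library kit does not mark strand, so overlapping and antisense genes cannot be separated. The submitters' processing notes name Subread, featureCounts and DESeq2 without versions. The aligner's settings and the annotation release are not given in the sources used here. The authors deposited raw counts per gene and FPKM per gene, and for 27140 genes the FPKM equalled the count divided by a length and the column total within 0.2%. Total counts ran from 30195867 to 45491932, and intervals on reads would cover counting error only.

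Groups came from the labels. Counts were tested with edgeR 4.0.16 (R 4.3.3), with TMM, filterByExpr (minimum count 10), group means over all 13 libraries and 6 residual degrees of freedom. The quasi-likelihood test of edgeR was used where the study used DESeq. A call needed a Benjamini-Hochberg adjusted p under 0.05 and a log2 fold change beyond 1. The offset was a natural spline (5 degrees of freedom) in GC content and log2 length of the GENCODE vM39 canonical transcript, fitted per library. The fit was tested on simulated data. FPKM was used for levels, for choosing genes by level or overlap, and for limma 3.58.1 on log2(FPKM + 1) and log2(FPKM + 0.1). DESeq2 1.42.0, other scalings and filters, and leaving out each 5C-C or 5C library were alternatives. The members and gene lists were chosen with earlier results of these data known. Single genes were named as the 12 largest rises and 12 largest falls called in both fits, with no overlap between libraries, a mean of at least 5 FPKM in the higher group and no provisional symbol, together with described list members. Some genes and a promoter sequence are not reported here.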

Additional observations from a re-analysis of the deposited data

How the results depend on the processing

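Calls in 5C-C against 5C numbered 2010 with the GC and length offset (951 higher, 1059 lower), 2630 with a GC offset alone (1255 and 1375), 2318 with limma on log2(FPKM + 1) (973 and 1345) and 6978 with a log2 fold threshold of 0.5 (3361 and 3617). Leaving out 1 library, always of 5C-C or 5C, gave 2816 to 4980 calls in all, 1237 to 2408 higher and 1579 to 2572 lower. The higher calls were fewest without 5C-C library B, which left 2541 of the 4011 calls. The libraries of the other removals were all kept. Against them, leaving out a 5C-C or 5C library gave 829 to 2383 calls (363 to 1156 higher, 466 to 1227 lower). With limma on log2(FPKM + 1) the calls numbered 479 (265 and 214). The cause was not tested. The Spearman correlation with GC content was 0.39 to 0.41 without 1 library and 0.54 among genes of at least 10 FPKM, and with length it was -0.33 to -0.20 and -0.50. The fits with the offset under other filters, scalings and libraries, chosen after seeing the data, gave 1468 to 2507 calls.

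List medians changed sign for sterol synthesis (-0.16 to 0.04 without 1 library, positive without 5C-C library B), matrix (-0.14 with the GC offset alone, and -0.11 with total counts and with limma at either pseudocount), cytokines (-0.22 with at least 10 counts in every library and -0.14 with limma on log2(FPKM + 0.1)), the BCL2 family (0.01 with the GC offset alone), NRF2 targets (-0.02 with the length offset alone) and mitochondrial subunits (0.26 with the GC offset alone). Prkd2 went to -0.27 with both offsets and -0.37 with the GC offset, Hspb1 to -0.15 with both, and Adgre1 to 0.03 with the GC offset. No paired analysis was possible because the labels give the 5C-C libraries no replicate number, and the running numbers of the table columns match no label. With 2 libraries a group, genes with few reads rest on counting error, and differences missed here are not shown to be absent.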
